A study of Mus musculus with 18 samples.

Results

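Rab GTPases are small GTP-binding proteins that mark intracellular membranes and set where a vesicle moves, docks and fuses. Each Rab cycles between a GTP-bound form, which recruits effectors such as tethers and motor adaptors, and a GDP-bound form. Guanine nucleotide exchange factors switch it on and GTPase-activating proteins switch it off. In macrophages, Rabs order the passage of engulfed cargo from early to late endosomes and lysosomes, the return of receptors to the cell surface, and the release of cytokines and granule contents. The Rab genes here were all genes of the count table whose symbol is Rab, a number and at most one letter, so that effectors and regulators with Rab in their name were left out. This gave 44 of the 11243 genes in the table. The mouse GENCODE M21 annotation of the GRCm38 build lists 59 coding genes with such a symbol, and the other 15 (among them Rab27b, Rab38, Rab3b, Rab25 and Rab17) were not analysed here, since the authors kept only genes counted in every library.

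RAW264.7, a macrophage-like line of mouse origin, was used in 3 experiments. Cells received vehicle (DMSO; called control here), lipopolysaccharide (LPS, a bacterial cell wall component that activates macrophages through Toll-like receptor 4) at 500 ng/mL for 6 h, or the same LPS after 100 nM torin1, an inhibitor of the kinase mTOR, given 15 min ahead. From each of the 9 lysates, total mRNA and polysome-associated mRNA were sequenced, which gives 18 libraries and 3 per group. Torin1 without LPS was not analysed here, so each torin1 value below is a difference from LPS alone. All groups share this 1 cell line, and in bulk RNA a change in the number of cells and a change in RNA per cell cannot be told apart. Libraries held 27800983 to 47725557 counts, of which Rab genes took 0.2727 to 0.3126%. All 10 macrophage markers looked up were in the table, and none of 7 lymphocyte or 8 fibroblast and epithelial markers was. Of 7 symbols looked up as LPS response markers, 5 were in the table. These 5 summed to 352 to 696 CPM (read counts scaled to a common library size) in the control libraries of both RNA types. The sums were 16388 to 21016 after LPS and 12111 to 15994 after LPS and torin1. In mean total mRNA, Irg1 was higher with torin1 than with LPS alone (9476 against 7999 CPM), while Tnf, Il1b, Ptgs2 and Cxcl10 were lower.

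Rab genes were grouped by the membrane they are best known for: 7 of the early endosome, 7 of the late endosome and lysosome, 9 of the recycling endosome, 7 of secretory granules and exocytosis, 11 of the endoplasmic reticulum (ER) and Golgi, and 3 of other or unclear place. Several Rabs act on more than one membrane, and Rab8a and Rab8b were counted as secretory. The classes were set with earlier results of these data known, so class counts, medians and shares below are descriptions. A gene is said to have risen or fallen where edgeR's quasi-likelihood test gave an adjusted p of at most 0.25, the false discovery rate (FDR) the study used, after Benjamini-Hochberg adjustment over all 11243 genes. Levels are CPM, scaled within an RNA type, and are listed for experiments 1, 2 and 3 in that order, and changes are log2 fold changes with their standard error (SE).

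Promoter sequence was available for 38 of the 44 Rab genes, as the 250 bases ahead of the RefSeq transcription start in GRCm38.p6. It was searched on both strands for the E-box CACGTG, bound among others by the MiT/TFE factors that mTOR keeps out of the nucleus, for the AP-1 motif TGANTCA and for the NF-kB motif. The E-box was found ahead of 5 of 38 Rab genes (13.16%), against 10.25% of the 8569 genes of the table with promoter sequence. Of all 32851 single windows 6.021% held it, a share per window that is not like the shares per gene. Of the 5 holders, Rab20, Rab21 and Rab5a rose with LPS in both RNA types, and Rab27a and Rab23 fell in both. Among all 44 Rab genes 24 passed in both. Of all genes 66.5% passed in total and 55.1% in polysome-associated mRNA, and the share passing in both was not counted. A link between motif and change was not tested. The sequences that follow are those of the 3 early endosome Rabs among the holders, Rab20, Rab21 and Rab5a, and of Rab27a, the Rab that fell most, each read 5′ to 3′ on the strand of the gene with the E-box in capitals.
Rab20 (chr8:11478641-11478890, minus strand, E-box from position -46, counted back from the start): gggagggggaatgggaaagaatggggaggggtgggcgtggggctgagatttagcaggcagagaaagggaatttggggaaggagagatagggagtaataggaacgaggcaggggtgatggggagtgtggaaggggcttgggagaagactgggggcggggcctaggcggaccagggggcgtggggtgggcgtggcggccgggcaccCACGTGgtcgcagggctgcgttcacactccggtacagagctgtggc
Rab21 (chr10:115315592-115315841, minus strand, E-box from -30): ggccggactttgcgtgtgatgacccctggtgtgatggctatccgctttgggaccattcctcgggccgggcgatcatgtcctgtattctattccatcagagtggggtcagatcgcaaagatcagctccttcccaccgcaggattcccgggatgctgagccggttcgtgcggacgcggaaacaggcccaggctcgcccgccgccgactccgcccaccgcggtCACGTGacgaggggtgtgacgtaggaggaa
Rab5a (chr17:53478984-53479233, plus strand, E-boxes from -235 and -95): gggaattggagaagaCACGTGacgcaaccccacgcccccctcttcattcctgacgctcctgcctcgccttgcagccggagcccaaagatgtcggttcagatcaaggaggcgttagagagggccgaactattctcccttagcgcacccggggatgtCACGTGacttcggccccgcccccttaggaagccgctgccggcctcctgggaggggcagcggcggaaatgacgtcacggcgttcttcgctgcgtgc
Rab27a (chr9:73063898-73064147, plus strand, E-box from -246): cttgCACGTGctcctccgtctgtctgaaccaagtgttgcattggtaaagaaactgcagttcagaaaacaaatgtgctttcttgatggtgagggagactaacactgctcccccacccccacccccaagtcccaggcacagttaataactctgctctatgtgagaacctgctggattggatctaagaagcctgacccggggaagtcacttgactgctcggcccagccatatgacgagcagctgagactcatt
RefSeq gives several starts for some genes, and a gene was counted if any of its windows held the motif. The Rab27a start shown lies inside the gene, and the window of its first start (chr9:73044560-73044809) holds no E-box. The fifth holder was Rab23, which fell with LPS, and the AP-1 motif was found in the Rab15 and Rab34 promoters (5.263% of 38, against 5.275% of table genes and 6.749% of windows). The NF-kB motif was found ahead of Rab15 and Rab28, against 5.251% of table genes and 3.899% of windows. A match is only a run of letters in this window and does not show that a factor binds there.

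In control cells the Rab mRNAs differed widely in level. Per kilobase of exon (CPM per kb, total mRNA, mean ± SD, n = 3), Rab31 came first at 78.9 ± 7.45, followed by Rab5c at 66.6 ± 5.48, Rab1b at 57.9, Rab7 at 54.3 and Rab1 at 47.6. The ranges of Rab31 (71.2 to 86.1) and Rab5c (61.1 to 72.0) overlapped, so the order of these neighbours lies within their spread. At the other end stood Rab15 at 0.053 and Rab30 at 0.033, with as few as 1 and 2 counts in a library. After LPS the order changed: Rab8b moved from rank 7 to rank 2 (94.2) behind Rab31 (114), and Rab20 from rank 30 to 13. After LPS and torin1, Rab7 ranked first (97.1) and Rab20 sixth (46.0).

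Summed per kilobase, early endosome Rabs made up 26.3% of Rab mRNA in control total libraries, 30.4% after LPS and 28.2% after LPS and torin1. The share of late endosome Rabs went the other way, with 20.7%, 17.4% and 22.2%. Recycling Rabs made up 16.1%, 14.4% and 15.2%, secretory Rabs 9.15%, 12.2% and 10.3%, and ER and Golgi Rabs 25.6%, 24.3% and 22.7%. These are parts of the Rab sum, and a lower share after LPS was not a lower level in these classes. The mean late endosome sum was 150.16 CPM per kb in control and 162.67 after LPS, with overlapping libraries. The recycling sum was 116.54 and 135.55, and the ER and Golgi sum 184.98 and 227.86, both without overlap. The early endosome share was higher in every LPS library (29.1 to 32.2%) than in every control library (25.5 to 27.4%). In the polysome libraries the early endosome share was 32.5% in control cells and 38.1% after LPS. A class sum follows its most abundant members, so that the secretory sum is mostly Rab8b and Rab8a.

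The first comparison asked how 6 h of LPS changed Rab mRNA. In total mRNA 29 of 44 Rab genes passed the test (65.9%), which is near the 66.5% of all genes that did. Of these 19 rose (43.2%, against 32.2% of all genes) and 10 fell (22.7%, against 34.3%). In polysome-associated mRNA 26 of 44 passed (59.1%, against 55.1%), with 18 higher (40.9%, against 26.4%) and 8 lower (18.2%, against 28.7%). The median log2 change over all Rabs was 0.20 in total and 0.18 in polysome-associated mRNA, beside -0.02 and -0.03 over all genes. A set of 24 Rabs passed in both RNA types, each with the same direction in both. How many of all genes passed in both was not counted, so these 24 have no background beside them. Rab10, Rab2a, Rab34, Rab5c and Rab8a passed in total mRNA alone and Rab26 and Rab5b in polysome-associated mRNA alone, and the difference between RNA types was tested separately below. With the experiment as a block, Rab13 (adjusted p = 0.204), Rab19 (0.171) and Rab5b (0.128) also passed in total mRNA, and Rab2a, Rab34 (0.195) and Rab8a (0.171) on polysomes. The block also raised the calls over all genes, from 7471 to 8223 in total mRNA and from 6191 to 7062 on polysomes. Over all genes, leaving out experiment 1, 2 or 3 gave 6756, 7062 and 6238 calls in total mRNA, against 7471 with all experiments. On polysomes it gave 3901, 7251 and 4224, against 6191. Single calls lost in this way below are to be read beside these counts.

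**Figure D1:**
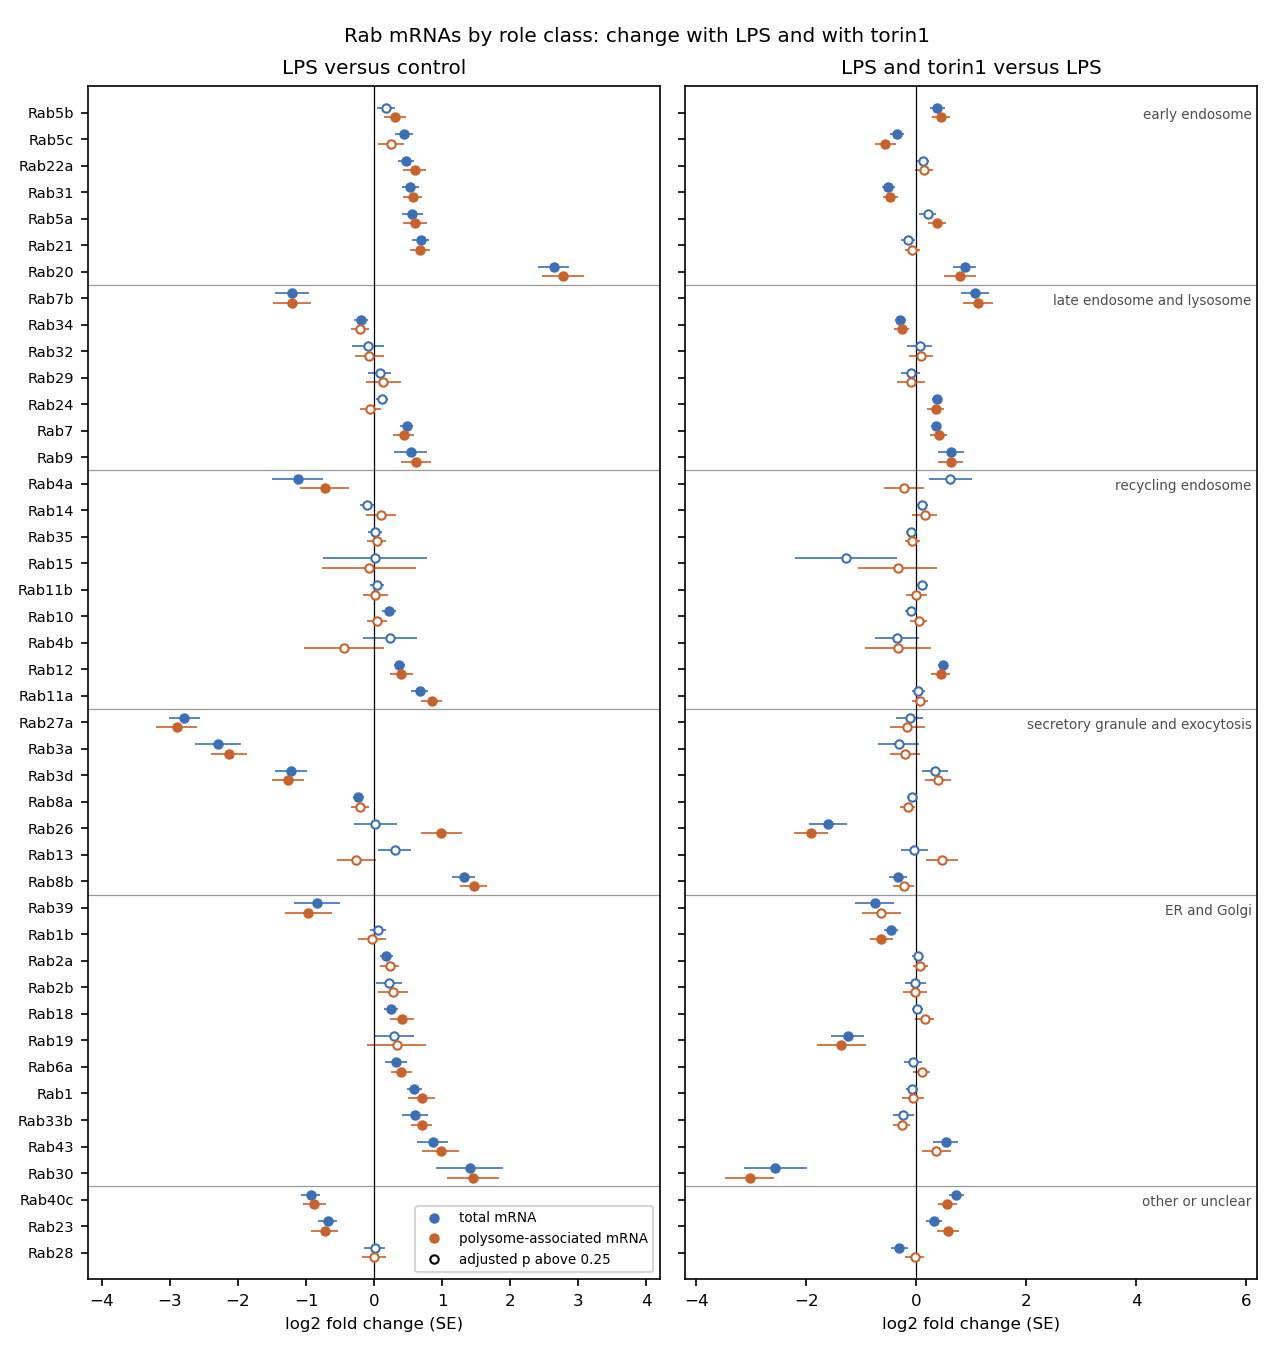
Log2 fold change (x axis, bars are the standard error) of each of the 44 Rab genes, grouped by membrane, for LPS against control (left) and for LPS and torin1 against LPS (right), in total (blue) and polysome-associated mRNA (orange). Open symbols mark an adjusted p above 0.25. Rab20 stands at the right of the LPS panel (2.64 and 2.77) and Rab27a at its left (-2.79 and -2.90).

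Early endosome Rabs were mostly higher after LPS: 6 of 7 rose (85.7%) and none fell in either RNA type. Of all genes 32.2% rose and 34.3% fell in total mRNA, and 26.4% rose and 28.7% fell on polysomes. The median log2 change of the class was 0.53 in total and 0.60 in polysome-associated mRNA. The class median was positive in each experiment (0.63, 0.58 and 0.27 in total mRNA). Rab20, which acts on early endosomes and maturing phagosomes, showed the largest rise of all Rabs. Its total mRNA was 5.89, 6.36 and 4.42 CPM in control cells, 41.3, 39.8 and 22.97 after LPS, and 64.3, 69.4 and 58.3 after LPS and torin1. The 3 treatments did not overlap, and the rise with LPS was 6.23-fold (log2 2.64, SE 0.23, adjusted p = 1.1e-05). On polysomes it went from 10.03, 8.56 and 6.07 CPM to 69.3, 66.3 and 32.4, a log2 change of 2.77 (SE 0.31, adjusted p = 9.91e-05). The noncoding gene E230013L22Rik overlaps 25.6% of Rab20 exon bases on the opposite strand, and the sources used here do not say whether counting used strand.

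The 3 Rab5 paralogues drive fusion of early endosomes. Rab5a total mRNA was 49.3, 50.8 and 43.9 CPM in control cells and 83.7, 75.8 and 52.9 after LPS, with no overlap (log2 change 0.56, SE 0.15, adjusted p = 0.0127). Its polysome-associated mRNA rose from 33.5, 44.6 and 39.3 to 61.6, 58.4 and 58.0 (0.60, SE 0.17, adjusted p = 0.0206). Both RNA types of Rab5a were thus about 1.5 times as high after LPS (1.48-fold and 1.52-fold). Rab5c, the most abundant Rab5, went from 146, 134 and 158 to 170, 235 and 186 CPM in total mRNA (0.43, SE 0.13, adjusted p = 0.0214). On polysomes Rab5c was 270, 208 and 262 CPM in control and 275, 349 and 253 after LPS, which overlap (0.24, SE 0.19, adjusted p = 0.362). Rab5b showed the reverse pattern of calls. In total mRNA it was 55.4, 59.3 and 46.2 CPM against 70.0, 57.9 and 53.4 (0.17, SE 0.13, adjusted p = 0.32). On polysomes it was 69.4, 67.7 and 60.3 against 96.3, 80.6 and 67.2 (0.31, SE 0.16, adjusted p = 0.17), a call lost without experiment 1 (adjusted p = 0.565) or 3 (0.289).

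The rest of the early class rose in both RNA types. Rab21, linked to integrin uptake, changed by 0.68 in total and 0.67 in polysome-associated mRNA. Rab22a, which acts between early and recycling endosomes, changed by 0.47 and 0.60. Rab31, a close relative of Rab22a, changed by 0.53 and 0.57 from an already high level (271 to 328 CPM in control and 401 to 467 after LPS, total mRNA). None of these 3 overlapped between control and LPS in either RNA type.

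Late endosome and lysosome Rabs split: in total mRNA 2 of 7 rose and 2 fell after LPS (median 0.08). These are 28.6% each, against 32.2% and 34.3% of all genes. On polysomes 2 rose (28.6%, against 26.4%) and 1 fell (14.3%, against 28.7%). The fitted polysome median was -0.05 while the medians within experiments were 0.12, 0.05 and 0.07, so this class had no direction. Rab7, which recruits the machinery for lysosome fusion and positioning, rose in total mRNA from 139, 145 and 141 to 175, 211 and 207 CPM (log2 0.48, SE 0.10, adjusted p = 0.00265). Its polysome-associated mRNA rose from 113.1, 120 and 93.7 to 127, 155 and 159 (0.43, SE 0.16, adjusted p = 0.0548), a call lost without experiment 3 (adjusted p = 0.438). Rab7b, linked to transport from late endosomes to the trans-Golgi network, moved the other way. It was 86.5, 118.3 and 62.0 CPM in control and 51.3, 36.3 and 28.5 after LPS in total mRNA, and 101.04, 127 and 69.1 against 58.2, 40.9 and 30.2 on polysomes. The groups did not overlap and the log2 change was -1.202 in total and -1.201 in polysome-associated mRNA (SE 0.25 and 0.28, adjusted p = 0.00284 and 0.00748).

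Rab9, which returns mannose 6-phosphate receptors from late endosomes to the Golgi, was 15.8, 19.7 and 13.6 CPM in control and 30.96, 24.7 and 15.7 after LPS in total mRNA. The groups overlapped, and the log2 change of 0.54 (SE 0.24, adjusted p = 0.0886) was not called without experiment 1 (adjusted p = 0.457). The polysome rise of Rab9 (0.62, SE 0.22, adjusted p = 0.0569) was lost likewise without experiment 1 (adjusted p = 0.494). Rab34, linked to lysosome positioning, fell slightly in total mRNA (-0.19, SE 0.11, adjusted p = 0.169). That call was lost without experiment 2 (adjusted p = 0.515) or 3 (0.298) and with DESeq2 (0.275). Rab24, Rab29 and Rab32 did not pass in either RNA type, with log2 changes between -0.09 and 0.14.

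Of the 9 recycling endosome Rabs, 3 rose (33.3%, against 32.2% of all genes) and 1 fell (11.1%, against 34.3%) in total mRNA. On polysomes 2 rose (22.2%, against 26.4%) and 1 fell (11.1%, against 28.7%). The class median was 0.04 in both RNA types. Rab11a, the main Rab of the recycling endosome, rose from 51.8, 54.2 and 47.8 to 94.4, 78.1 and 71.8 CPM in total mRNA (log2 0.67, SE 0.12, adjusted p = 0.00116). On polysomes it rose from 43.4, 53.8 and 53.7 to 95.7, 81.0 and 94.8 (0.85, SE 0.15, adjusted p = 0.00186), with no overlap in either RNA type. Its paralogue Rab11b stayed between 24.2 and 28.9 CPM in the control and LPS total libraries (0.04, SE 0.11, adjusted p = 0.778). Rab12, linked to transferrin receptor turnover, changed by 0.37 in total mRNA (adjusted p = 0.00407) and by 0.40 on polysomes (adjusted p = 0.0975). The latter call was lost without experiment 1 (adjusted p = 0.262) or 3 (0.414). Rab10 rose in total mRNA (0.22, adjusted p = 0.124), though not without experiment 2 (adjusted p = 0.31).

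Rab4a, of the fast recycling route, was the recycling Rab that fell. It was 1.58, 1.11 and 2.08 CPM in control and 0.355, 1.02 and 0.772 after LPS in total mRNA, with as few as 10 counts in a library (log2 -1.12, SE 0.38, adjusted p = 0.0318). The polysome fall of Rab4a (-0.73, adjusted p = 0.143) was lost without experiment 1 (adjusted p = 0.489) or 3 (0.47). Rab14, Rab15, Rab35 and Rab4b did not pass in either RNA type. For Rab15, with 1 to 21 counts per library, a change was not detectable at this depth.

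Among secretory Rabs, 4 of 7 fell after LPS (57.1%, against 34.3% of all genes) and 1 rose (14.3%, against 32.2%) in total mRNA. On polysomes 3 fell (42.9%, against 28.7%) and 2 rose (28.6%, against 26.4%). The class medians were -0.23 and -0.26. No other class had as many falls, but the 3 Rabs of other or unclear place had a larger share (66.7% in both RNA types, medians -0.68 and -0.73). Rab27a, which docks lysosome-related and secretory granules at the plasma membrane, showed the largest fall of all Rabs. Its total mRNA was 7.41, 8.99 and 6.91 CPM in control, 0.853, 1.23 and 1.27 after LPS, and 1.25, 0.975 and 0.871 after LPS and torin1. All treated libraries were far below all control libraries, at 0.145 of the control level after LPS (log2 -2.79, SE 0.23, adjusted p = 8.42e-06). On polysomes Rab27a went from 6.30, 6.30 and 5.26 to 0.516, 0.941 and 0.908 CPM (-2.90, SE 0.30, adjusted p = 6.5e-05).

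Rab3a and Rab3d, Rabs of regulated exocytosis, fell together with Rab27a. Rab3a total mRNA was 3.34, 3.31 and 4.36 CPM in control and 0.462, 1.08 and 0.679 after LPS (log2 -2.29, SE 0.33, adjusted p = 0.000323). On polysomes Rab3a went from 4.34, 4.44 and 3.85 to 0.872, 1.19 and 0.804 CPM (-2.13, SE 0.27, adjusted p = 0.000205). The Rab3a groups were several-fold apart in both RNA types. Rab3d total mRNA was 12.8, 16.7 and 14.0 CPM against 4.34, 7.47 and 6.79 (-1.22, SE 0.24, adjusted p = 0.00198), and on polysomes 26.8, 28.0 and 22.5 against 7.88, 13.8 and 10.5 (-1.26, SE 0.24, adjusted p = 0.00219). Neither Rab3 overlapped between control and LPS.

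Rab8b, which carries cargo from the Golgi and recycling endosomes to the plasma membrane, rose the most of the abundant Rabs. Its total mRNA went from 173, 195 and 169 CPM to 563, 409.6 and 364 after LPS (log2 1.31, SE 0.17, adjusted p = 0.000125). Its polysome-associated mRNA went from 101.1, 128 and 114 to 371, 275 and 302 (1.46, SE 0.19, adjusted p = 0.00028). Every LPS library was above every control library in both RNA types. Its paralogue Rab8a fell slightly in total mRNA (-0.23, SE 0.08, adjusted p = 0.0435), a call lost without experiment 3 (adjusted p = 0.279).

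Rab26, linked to granule maturation and lysosome clustering, was called on polysomes only. Its polysome-associated mRNA was 1.00, 1.01 and 1.60 CPM in control and 2.07, 2.08 and 3.04 after LPS, without overlap (log2 0.99, SE 0.30, adjusted p = 0.0267). Its total mRNA was 2.43, 2.09 and 1.96 CPM against 2.38, 1.38 and 2.81 (0.02, SE 0.31, adjusted p = 0.966). Rab26 shares 9.36% of its exon bases with Traf7 on the same strand and had as few as 14 counts in a library. Rab13 passed in neither RNA type (0.30 and -0.26).

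ER and Golgi Rabs, of the early secretory pathway, were mostly higher after LPS. In total mRNA 7 of 11 rose (63.6%, against 32.2% of all genes) and 1 fell (9.09%, against 34.3%). On polysomes 6 rose (54.5%, against 26.4%) and 1 fell (9.09%, against 28.7%). The class medians were 0.30 and 0.40. Rab1, which is needed for transport from the ER to the Golgi, changed by 0.59 in total mRNA (adjusted p = 0.000982) and by 0.70 on polysomes (adjusted p = 0.0192). Rab1b, its paralogue, passed in neither (0.05 and -0.03). Rab43, a Golgi Rab, went from 14.1, 17.3 and 15.2 to 22.6, 38.9 and 22.9 CPM in total mRNA (0.86, SE 0.23, adjusted p = 0.0118) and from 24.2, 25.1 and 24.2 to 37.4, 71.6 and 35.8 on polysomes (0.98, SE 0.27, adjusted p = 0.0186). The groups of Rab43 did not overlap, and 75.4% of its exon bases are shared with Gm45140 on the same strand, which leaves its level uncertain.

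Rab30, a Golgi Rab with 2 to 43 counts per library, was 0.334, 0.113 and 0.497 CPM in control total mRNA and 1.03, 0.750 and 0.679 after LPS (log2 1.41, SE 0.49, adjusted p = 0.0388). On polysomes it was 0.227, 0.383 and 0.282 against 0.678, 1.09 and 0.675 (1.45, SE 0.38, adjusted p = 0.0144). All LPS libraries were above all control libraries despite the low counts. Rab33b, which acts at the Golgi and in autophagy, changed by 0.60 and 0.70, both called. Smaller rises of Rab18, Rab6a and Rab2a in total mRNA (0.24, 0.32 and 0.18) were each lost without experiment 1 (adjusted p = 0.372, 0.392 and 0.391), and that of Rab2a also without experiment 2 (0.383).

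The rises of Rab18 and Rab6a on polysomes (0.41 and 0.40) were lost without experiment 1 (adjusted p = 0.511 and 0.349) or 3 (0.26 and 0.363). Rab39 was the member of the ER and Golgi class that fell (-0.84 in total and -0.97 in polysome-associated mRNA), calls lost without experiment 3 (adjusted p = 0.289 and 0.278). Rab19 and Rab2b passed in neither RNA type. Of the 3 Rabs of other place, Rab23, which restrains Hedgehog signalling, fell (-0.68 and -0.73) and so did Rab40c, which joins a ubiquitin ligase (-0.93 and -0.88). Rab28 did not pass (0.01 and 0.00).

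**Figure D2:**
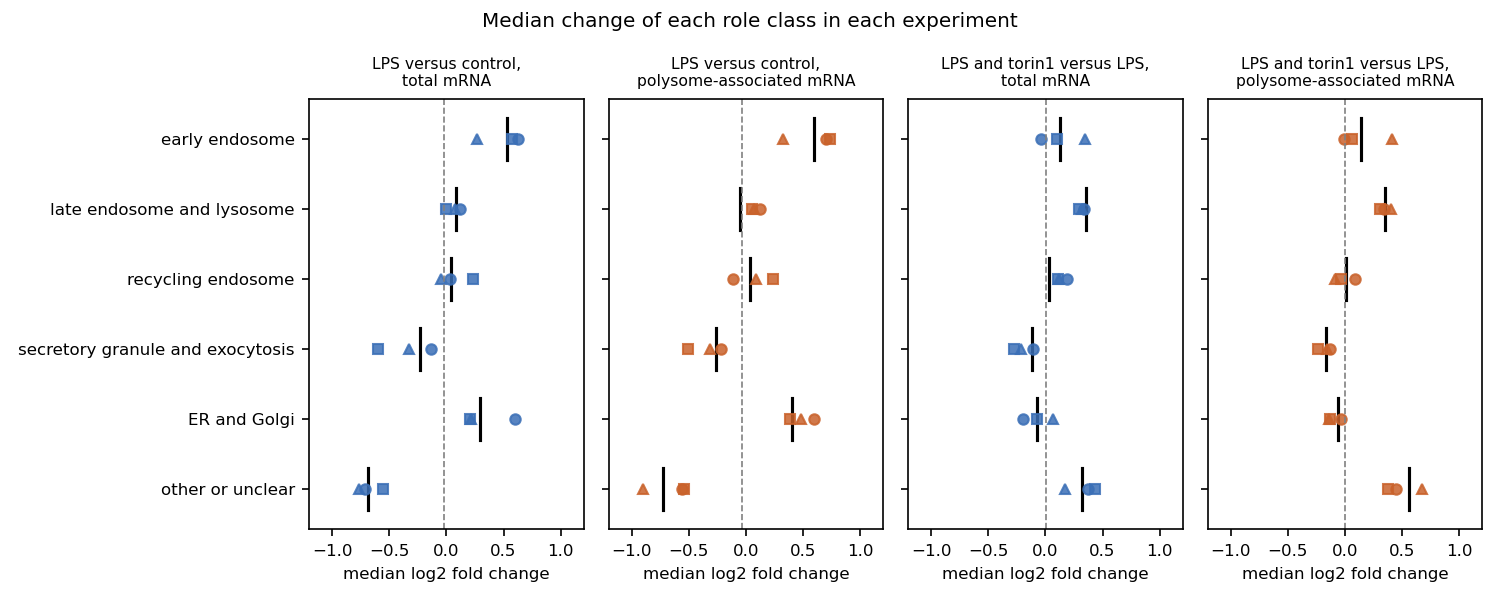
Median log2 fold change of each Rab class in each of the 3 experiments (points), with the median of the fitted changes (black bar) and the median of all genes (dashed line), by comparison and RNA type. The early endosome points lie above 0 in all experiments after LPS (0.63, 0.58 and 0.27 in total mRNA) and the secretory points below (-0.13, -0.60 and -0.33), and the late endosome points lie above 0 with torin1 (0.34, 0.29 and 0.32).

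The second comparison asked what inhibition of mTOR changed in LPS-treated cells. It shares the LPS libraries with the first, so values of the same gene in the 2 comparisons are not independent. In total mRNA 20 of 44 Rabs passed (45.5%, against 53.7% of all genes), 10 higher (22.7%, against 27.3%) and 10 lower (against 26.4%). On polysomes 17 passed (38.6%, against 38.4%), 10 higher (against 20.3%) and 7 lower (15.9%, against 18.2%). The median over all Rabs was -0.05 in total and -0.01 in polysome-associated mRNA. A set of 16 Rabs passed in both RNA types, Rab28, Rab39, Rab43 and Rab8b in total mRNA alone, and Rab5a on polysomes alone. Again, how many of all genes passed in both was not counted. At an FDR of 0.05, 11 Rabs passed in total mRNA (6 higher and 5 lower, against 29.2% of all genes) and 4 on polysomes (against 13.8%).

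The polysome calls with torin1 rested on experiments 1 and 3, in the Rab genes as in the whole table. Over all genes, leaving out experiment 1, 2 or 3 gave 1782, 5182 and 1187 calls, against 4322 with all experiments. Without experiment 1, 7 Rabs passed (against 15.8% of all genes), namely Rab7b, Rab20, Rab9 and Rab5b, which were higher, and Rab30, Rab26 and Rab19, which were lower. Without experiment 3, 4 passed (against 10.6%), namely Rab7b, Rab20, Rab26 and Rab30. Without experiment 2, 21 passed (against 46.1%). The polysome calls of Rab7, Rab12, Rab23, Rab24, Rab31, Rab34, Rab40c, Rab1b, Rab5a and Rab5c were thus lost without experiment 1 and without experiment 3, those of Rab9, Rab5b and Rab19 without experiment 3, and each is given below as the value with all experiments. With the experiment as a block 22 Rabs passed on polysomes, adding Rab13 (adjusted p = 0.192), Rab33b (0.233), Rab39 (0.234), Rab3d (0.126) and Rab43 (0.164). Over all 11243 genes the block likewise raised the polysome calls, from 4322 to 5587.

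Late endosome and lysosome Rabs were mostly higher with torin1: 4 of 7 rose (57.1%) and 1 fell (14.3%) in both RNA types. For all genes these shares were 27.3% and 26.4% in total mRNA, and 20.3% and 18.2% on polysomes. The class medians were 0.36 in total and 0.35 in polysome-associated mRNA, and were positive in each experiment. Rab7b rose from 51.3, 36.3 and 28.5 CPM after LPS to 91.4, 80.0 and 72.1 with torin1 in total mRNA (log2 1.07, SE 0.25, adjusted p = 0.0104). On polysomes it rose from 58.2, 40.9 and 30.2 to 116, 84.4 and 82.0 (1.13, SE 0.28, adjusted p = 0.0238). These torin1 levels fell within the range of the control libraries (62.0 to 118.3 in total mRNA). Rab7 rose further, from 175, 211 and 207 to 244, 259 and 258 CPM in total mRNA (0.36, SE 0.10, adjusted p = 0.0209) and from 127, 155 and 159 to 187, 181 and 218 on polysomes (0.41, SE 0.16, adjusted p = 0.11). The Rab7 libraries with torin1 were above all others in both RNA types.

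Rab9 went from 30.96, 24.7 and 15.7 to 39.1, 41.7 and 30.1 CPM in total mRNA (log2 0.64, SE 0.23, adjusted p = 0.065), with overlap. On polysomes Rab9 went from 23.7, 20.2 and 15.3 to 30.7, 32.3 and 28.4 without overlap (0.63, SE 0.22, adjusted p = 0.0894). Rab24, linked to autophagy, changed by 0.38 in total (adjusted p = 0.0131) and 0.35 in polysome-associated mRNA (adjusted p = 0.152). Prelid1 shares 62.4% of Rab24 exon bases on the opposite strand, so the level of Rab24 is uncertain. Rab34 fell (-0.29, adjusted p = 0.0658, and -0.27, adjusted p = 0.218). Its total mRNA call was lost without experiment 1 (adjusted p = 0.258) or 3 (0.275). Rab29 and Rab32 passed in neither, with log2 changes between -0.10 and 0.08.

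Early endosome Rabs moved in both directions with torin1: 2 rose and 2 fell in total mRNA (28.6% each, against 27.3% and 26.4% of all genes). On polysomes 3 rose (42.9%, against 20.3%) and 2 fell (28.6%, against 18.2%). The class medians were 0.12 and 0.14. Rab20 rose above its LPS level to 64.3, 69.4 and 58.3 CPM in total mRNA (log2 0.88, SE 0.21, adjusted p = 0.0109) and to 95.2, 117.5 and 78.0 on polysomes (0.79, SE 0.29, adjusted p = 0.0968). The Rab5 paralogues diverged. Rab5b rose to 85.6, 80.1 and 71.4 CPM in total mRNA (0.39, SE 0.13, adjusted p = 0.0509) and to 120, 114 and 99.7 on polysomes (0.45, SE 0.16, adjusted p = 0.0871). Rab5c fell to 149, 167 and 147 in total mRNA (-0.35, SE 0.13, adjusted p = 0.0701, and 0.266 without experiment 3) and to 176, 242 and 176 on polysomes (-0.56, SE 0.19, adjusted p = 0.0771). Neither Rab5b nor Rab5c overlapped with its LPS libraries in either RNA type.

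Rab5a was 86.7, 82.7 and 76.2 CPM in total mRNA with torin1 (log2 0.21, SE 0.15, adjusted p = 0.335, and 0.115 with the experiment as a block). On polysomes it was 77.7, 62.1 and 91.3 (0.38, SE 0.17, adjusted p = 0.165). Rab31 fell back to 274, 347 and 298 CPM in total mRNA (-0.51, SE 0.12, adjusted p = 0.0114), close to its control range of 271 to 328 CPM, and fell by 0.47 on the log2 scale on polysomes (adjusted p = 0.0482). Rab21 and Rab22a did not pass in either RNA type. With the experiment as a block Rab21 passed in total mRNA (adjusted p = 0.171).

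Recycling Rabs showed 1 call with torin1: Rab12 rose in total mRNA (log2 0.49, SE 0.08, adjusted p = 0.00212) and on polysomes (0.45, SE 0.17, adjusted p = 0.105). Rab11a was 81.1, 91.2 and 77.8 CPM in total mRNA and 94.3, 83.8 and 106.3 on polysomes, which overlapped with LPS alone (0.03 and 0.07, adjusted p = 0.856 and 0.804). The recycling class thus had 11.1% of its genes called in each RNA type, against 53.7% and 38.4% of all genes. Its median was 0.03 in total and 0.01 in polysome-associated mRNA. With the experiment as a block, Rab4a also passed in total mRNA (adjusted p = 0.194).

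No secretory Rab was called higher with torin1 (against 27.3% of all genes in total mRNA and 20.3% on polysomes). In total mRNA 2 of 7 fell (28.6%, against 26.4%), and on polysomes 1 fell (14.3%, against 18.2%). Rab26 fell from 2.38, 1.38 and 2.81 to 1.02, 0.639 and 0.488 CPM in total mRNA (log2 -1.60, SE 0.34, adjusted p = 0.00706). On polysomes it fell from 2.07, 2.08 and 3.04 to 0.541, 0.650 and 0.709 (-1.91, SE 0.31, adjusted p = 0.00382). All Rab26 libraries with torin1 were below all others. Rab8b was 405, 339 and 315 CPM in total mRNA (-0.34, SE 0.16, adjusted p = 0.15), overlapping with LPS alone, a call lost without experiment 2 (adjusted p = 0.28) or 3 (0.251). Rab27a and Rab3a stayed low, with log2 changes of -0.12 and -0.32 in total and -0.16 and -0.20 in polysome-associated mRNA (adjusted p = 0.555 to 0.772). Rab3d changed by 0.34 and 0.40 (adjusted p = 0.312 and 0.28) and passed with the experiment as a block (0.0863 and 0.126).

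**Figure D3:**
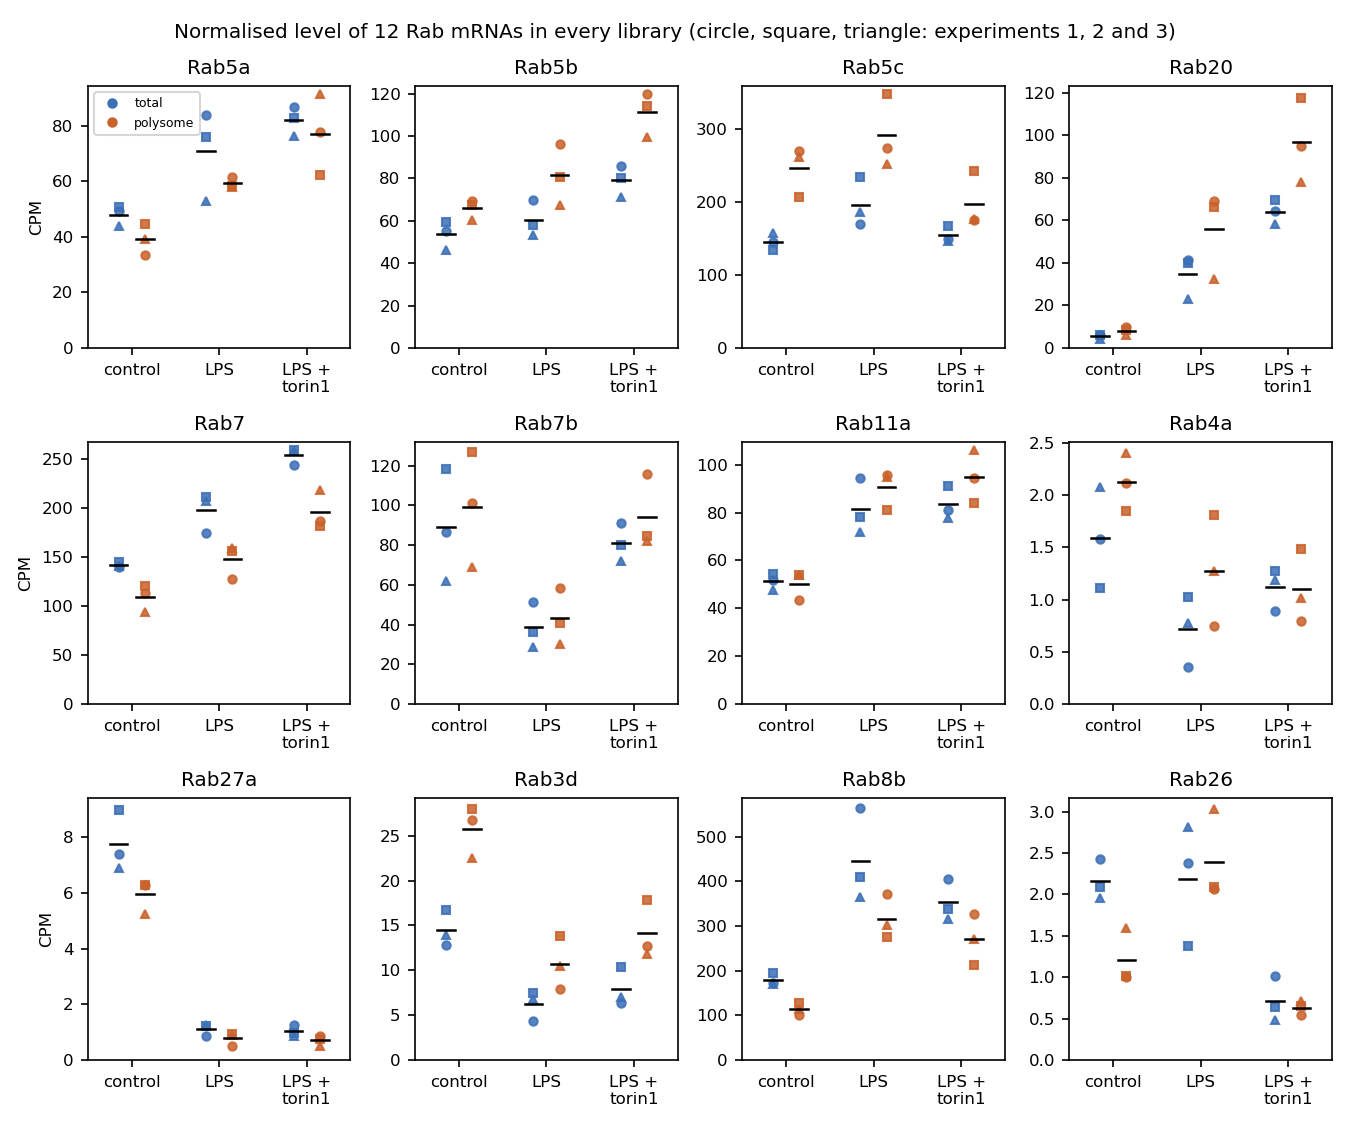
Level (CPM, y axis from 0) of 12 Rab genes in every library, by treatment and RNA type. Circles, squares and triangles are experiments 1, 2 and 3 and bars the mean. Rab20 climbs from control to LPS to LPS and torin1, Rab7b falls with LPS and lies higher with torin1 (72.1 to 91.4 in total mRNA), and Rab27a is low in all LPS libraries.

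ER and Golgi Rabs were called lower more often than higher with torin1. In total mRNA 4 of 11 fell (36.4%, against 26.4% of all genes) and 1 rose (9.09%, against 27.3%). On polysomes 3 fell (27.3%, against 18.2%) and none rose (against 20.3%). Rab30 fell to 0.0658, 0.235 and 0.105 CPM in total mRNA (log2 -2.56, SE 0.58, adjusted p = 0.00888) and to 0.0772, 0.0781 and 0.133 on polysomes (-3.03, SE 0.45, adjusted p = 0.00255). These are single-digit counts in some libraries, and all lie below every library with LPS alone. Rab19, a Golgi Rab, fell from 2.67, 3.27 and 2.66 to 0.888, 1.71 and 1.01 CPM in total mRNA (-1.25, SE 0.30, adjusted p = 0.0123). On polysomes Rab19 went from 1.58, 4.75 and 2.65 to 0.798, 1.74 and 0.974, with overlap (-1.36, SE 0.45, adjusted p = 0.0705).

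Rab1b fell from 116, 161 and 133 to 101.05, 104 and 94.0 CPM in total mRNA (log2 -0.46, SE 0.12, adjusted p = 0.0183) and from 262, 331 and 237 to 160, 226 and 150 on polysomes (-0.63, SE 0.20, adjusted p = 0.0629). All its torin1 libraries were below those with LPS alone, while Rab1 did not pass (-0.07 and -0.06). Rab39 was 4.34, 2.25 and 1.79 CPM with LPS and 1.51, 1.88 and 1.53 with torin1 in total mRNA (-0.76, SE 0.36, adjusted p = 0.136), a call lost without experiment 1 (adjusted p = 0.586). The rise of Rab43 in total mRNA (0.53, adjusted p = 0.106) was lost without experiment 3 (adjusted p = 0.423).

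Rab40c rose from 9.35, 10.3 and 11.9 to 15.8, 16.3 and 20.4 CPM in total mRNA (log2 0.73, SE 0.14, adjusted p = 0.00422) and changed by 0.57 on polysomes (adjusted p = 0.0527). Rab23 rose from 7.29, 6.78 and 7.87 to 9.44, 9.18 and 8.85 in total mRNA (0.32, SE 0.15, adjusted p = 0.121). On polysomes it rose from 5.23, 4.37 and 4.49 to 7.13, 5.67 and 8.26 (0.58, SE 0.20, adjusted p = 0.0771). The Rab23 groups did not overlap, though its total mRNA call was lost without experiment 1 (adjusted p = 0.344) or 2 (0.272). Rab28 fell in total mRNA (-0.31, adjusted p = 0.171), lost without experiment 1 (adjusted p = 0.446) or 2 (0.332).

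Set side by side, of the 19 Rabs that rose with LPS in total mRNA, 5 were higher still with torin1 (Rab12, Rab20, Rab43, Rab7 and Rab9), 4 were lower (Rab30, Rab31, Rab5c and Rab8b) and 10 were not called. Of the 10 that fell with LPS, 3 were higher with torin1 (Rab23, Rab40c and Rab7b), 2 were lower again (Rab34 and Rab39) and 5 were not called, Rab27a and Rab3a among them. These counts describe calls that share the LPS libraries and were not tested for overlap.

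Closely related paralogues took different shares of their subfamily's mRNA (percent of CPM per kb, mean ± SD, n = 3). Rab5c made up 75.2 ± 3.45% of Rab5 total mRNA in control, 76.1 ± 5.00% after LPS and 67.2 ± 2.05% after LPS and torin1, while Rab5a went from 10.3% to 11.5% and 14.8%. Rab7b made up 25.8 ± 5.85%, 10.1 ± 3.67% and 15.3 ± 1.95% of Rab7 and Rab7b together. Rab8b rose from 65.9 ± 1.39% to 84.6 ± 2.40% and 82.4 ± 1.75% of the Rab8 sum. The Rab8b shares with LPS (83.0 to 87.4%) did not overlap with control (64.4 to 67.2%). Rab11a made up 79.9%, 85.8% and 85.4% of Rab11 total mRNA. Pseudogenes named Rab5a-ps, Rab7-ps1 and Rab11b-ps2 exist, and reads shared with them could change these shares.

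**Figure D4:**
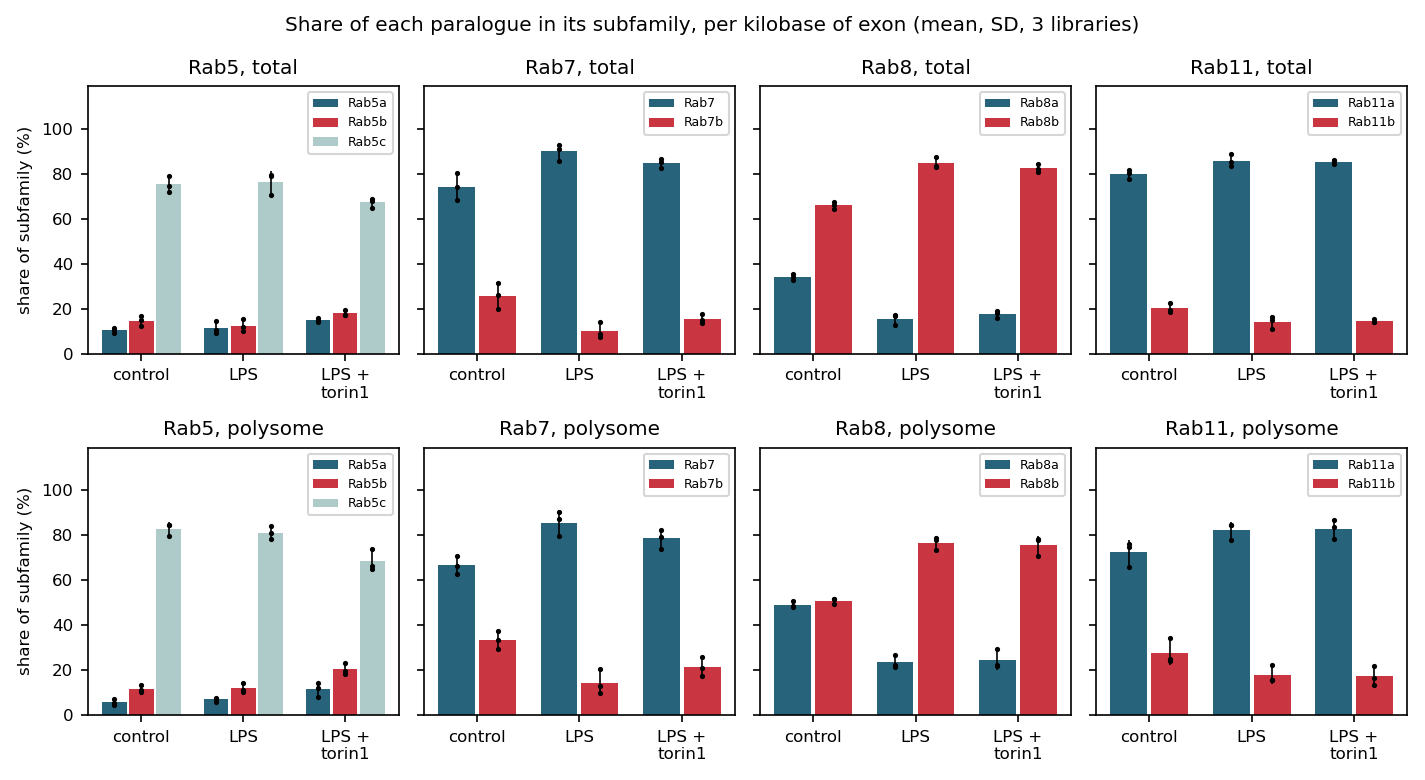
Share of each paralogue in the mRNA of its subfamily (percent of CPM per kb of exon, y axis), by treatment and RNA type, for Rab5, Rab7, Rab8 and Rab11. Bars are the mean ± SD of 3 libraries and dots the libraries. The Rab8b share is higher in all libraries with LPS than in control, at 84.6% against 65.9% of total mRNA.

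Polysome association was then compared with total mRNA. In control cells the log2 ratio of polysome-associated to total level, both scaled over all 18 libraries so that 0 is the typical mRNA, was lowest for Rab1 (-0.91 ± 0.23 SD), Rab26 (-0.87), Rab6a (-0.79), Rab2a (-0.71) and Rab8b (-0.65). It was highest for Rab4b (1.76), Rab1b (1.099), Rab3d (0.83) and Rab5c (0.75). Over all treatments, Rab1b was above Rab1 and Rab8a above Rab8b in 9 of 9 lysates, and neither pair overlapped. Rab5c was above Rab5a in 9 of 9 lysates, though the highest Rab5a ratio (0.25) passed the lowest of Rab5c (0.23). Rab11b was above Rab11a in 7 of 9, and these overlapped. Gene length and sequence were not part of this description, and 65.0% of Rab4b exon bases are shared with Gm21983 on the same strand.

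Translation efficiency, the change on polysomes beyond that in total mRNA, was tested as an interaction in a model of all 18 libraries, with a fold of at least 1.2 and the same FDR. This model left out the pairing of the total and polysome libraries of a lysate. No Rab gene was called for LPS or for torin1, and no gene of the table was either (0% of 11243 in both), while an unadjusted p under 0.05 was reached by 44 and by 110 genes. With each lysate as a block, which pairs its libraries, 0% and 0.222% of all genes were called. With DESeq2 0.00889% and 0.116% were called, and none of the genes called in these fits was a Rab. By analysis of partial variance, which regresses polysome-associated on total mRNA, 0.0889% and 0.187% were called. Rab30 was among the latter (log2 -3.49, adjusted p = 0.192, torin1), and it is the Rab with as few as 2 counts in a library. That value is the treatment term of the regression. The edgeR value for Rab30, -0.48, is the polysome change minus the total change, so the 2 values are unlike measures. The Rab with an unadjusted p under 0.05 in the edgeR model was Rab26 with LPS (log2 0.97, SE 0.43, adjusted p = 0.9999 by edgeR). The Rab26 change was positive in 3 of 3 experiments (1.08, 1.64 and 0.41), and failed the adjustment. The median Rab change in translation efficiency was 0.03 with LPS and -0.01 with torin1.

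Genes that act on Rabs were examined as a list of 85: 8 for prenylation and escort, 32 exchange factors, 25 GTPase-activating proteins and 20 effectors. With LPS, 28 of 85 rose and 29 fell in total mRNA, and 18 rose and 24 fell on polysomes (32.9% and 34.1%, and 21.2% and 28.2%, against 32.2% and 34.3%, and 26.4% and 28.7%, of all genes), so that the list was near the background in total mRNA. With torin1, 42 rose and 7 fell in total mRNA, and 31 rose and 5 fell on polysomes (against 27.3% and 26.4%, and 20.3% and 18.2%, of all genes). By role, in total mRNA with torin1, 14 exchange factors rose and 4 fell, 14 GTPase-activating proteins rose and 2 fell, and 13 of 20 effectors rose and none fell (median log2 change 0.40).

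The regulators that rose most on polysomes with LPS were an effector of Rab11, an effector of Rab8-type Rabs and an exchange factor of Rab5. Rab11fip1, which links Rab11 to recycling vesicles, went from 46.9, 35.7 and 34.4 to 196, 106.6 and 145 CPM (log2 1.94, SE 0.25, adjusted p = 0.000245). Rilpl2 went from 30.4, 24.7 and 24.4 to 106.2, 104 and 70.9 (1.82, SE 0.19, adjusted p = 5.46e-05). Rabgef1, the exchange factor known as Rabex-5, went from 18.1, 18.8 and 17.9 to 70.0, 63.8 and 54.5 (1.78, SE 0.14, adjusted p = 1.13e-05). All 3 were higher in each LPS library than in each control library.

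Those that fell most were Tbc1d4, Rin1 and Dennd2c. Tbc1d4, a GTPase-activating protein for Rab10 and related Rabs, went from 15.4, 11.5 and 13.9 to 1.97, 1.78 and 2.39 CPM on polysomes (log2 -2.73, SE 0.23, adjusted p = 1.75e-05). Rin1, an exchange factor of Rab5, went from 22.8, 16.1 and 22.9 to 3.42, 3.18 and 3.996 (-2.54, SE 0.26, adjusted p = 5.46e-05), and to 1.24, 0.807 and 1.59 with torin1 (-1.53, SE 0.27, adjusted p = 0.00528). Dennd2c, an exchange factor of the DENN family, went from 28.4, 29.4 and 32.6 to 6.101, 6.97 and 7.21 (-2.16, SE 0.16, adjusted p = 8.92e-06). The Rab5 exchange factors Rabgef1 and Rin1 thus moved in opposite directions with LPS.

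The list holds several partners of Rab7, which were grouped after their values were seen and are given as a description for total mRNA, and they did not move as one. Among the effectors, Plekhm1, which tethers lysosomes, changed by -1.14 with LPS (adjusted p = 6.37e-05) and by 1.41 with torin1 (adjusted p = 0.000141). Rilp, which couples Rab7 to dynein, changed by -1.18 (adjusted p = 0.00866) and 1.03 (adjusted p = 0.0305). Its level was low, at 0.320 to 0.540 CPM with LPS alone. The lipid-binding Osbpl1a changed by -0.75 (adjusted p = 0.000251) and 0.59 (adjusted p = 0.00279). Fyco1, a kinesin adaptor, rose with both (0.63, adjusted p = 0.00256, and 0.46, adjusted p = 0.0226). Of the exchange factor subunits, Mon1b rose with LPS (0.41, adjusted p = 0.00533) and did not pass with torin1, and Mon1a and Ccz1 passed in neither comparison (log2 changes between -0.18 and 0.04). Of the GTPase-activating proteins, Tbc1d15 changed by -0.35 (adjusted p = 0.0443) and 1.25 (adjusted p = 0.0002) and Tbc1d17 by -0.44 (adjusted p = 0.0438) and 1.50 (adjusted p = 0.000215). Tbc1d2 passed with torin1 only (2.28, adjusted p = 0.00203), and Tbc1d5 in neither comparison (0.03 and 0.05).

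**Figure D5:**
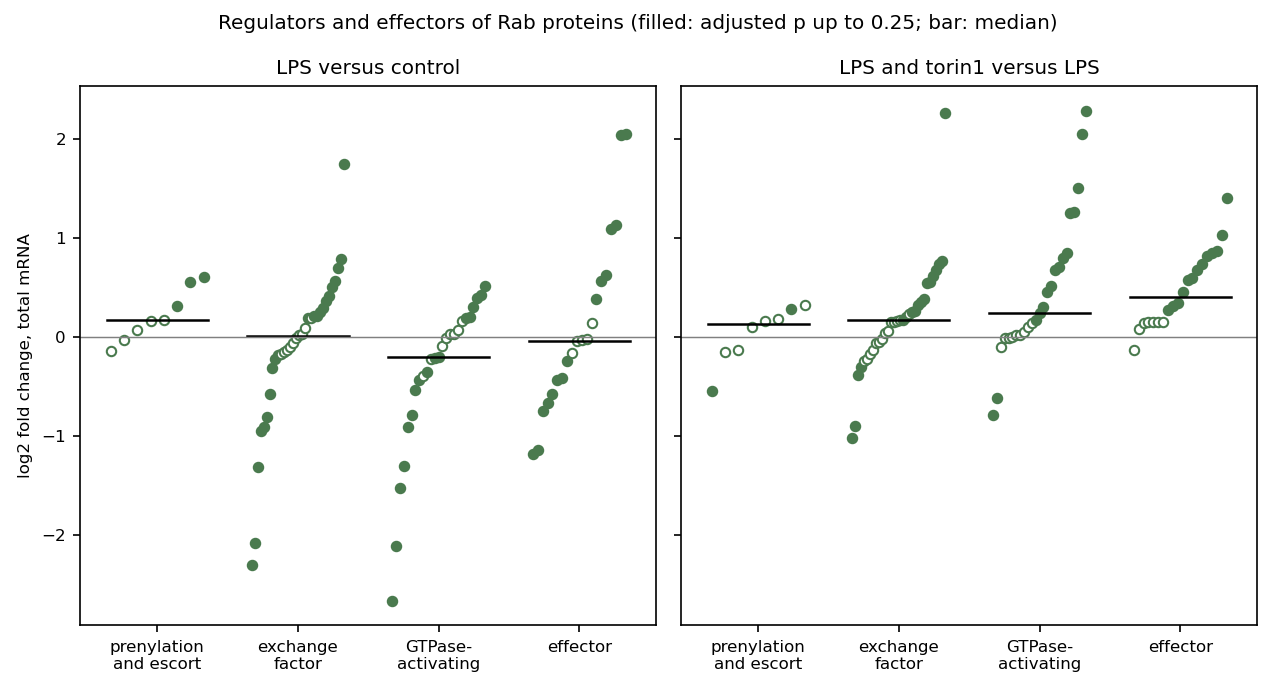
Log2 fold change in total mRNA (y axis) of the 85 genes that act on Rabs, by role, for LPS against control and for LPS and torin1 against LPS. Filled symbols passed at an adjusted p of 0.25 and bars are medians. The effector points lie mostly above 0 with torin1 (median 0.40).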

How the data were processed

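Total and polysome-associated mRNA of 9 lysates was sequenced paired-end after ribosomal RNA removal with a stranded kit. Reads were aligned by the authors with HISAT2 to GRCm38 and assigned to Ensembl genes with featureCounts, and the deposited raw counts per gene hold protein-coding genes counted at least 1 time in all 18 libraries. Whether counting used strand is not given in the sources used here. Here counts were tested with edgeR 4.0.16 in R 4.3.3 (TMM, quasi-likelihood, Benjamini-Hochberg over 11243 genes, FDR 0.25, for translation efficiency also a fold of at least 1.2), the 9 libraries of an RNA type sharing 1 estimate of spread and all 18 for translation efficiency. anota2seq, which the study used, was not run. DESeq2 1.42.0, limma 3.58.1 for analysis of partial variance, other scalings, filters, a replicate block and leaving out each experiment served as alternatives. The fits were tested on simulated data. Libraries held 27800983 to 47725557 counts, and genes under 10 counts have the least precision. P-values measure the spread between 3 experiments of 1 cell line. Same-numbered total libraries deviated together (correlations 0.149 to 0.412). Polysome libraries, from the same lysates, had correlations of -0.0886 to 0.724, so not every polysome pair showed it. The experiments were described as independent replicates and were treated as paired in the block. For translation efficiency the block was the lysate. Values in every library are given for Rab5a, Rab5b, Rab5c, Rab7, Rab11a, Rab27a, for up to 4 rising and 4 falling Rabs per comparison that changed alike in 3 experiments, and for 3 rising and 3 falling regulators. Rab genes, role classes and lists were chosen with earlier results of these data known. Sequences are from RefSeq (GRCm38.p6).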

Additional observations from a re-analysis of the deposited data

How the results depend on the processing

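No called value changed sign under any alternative run. At an FDR of 0.05, 11 of 44 Rab genes passed with torin1 in total mRNA (20 at 0.25) and 4 on polysomes (17 at 0.25). Of all genes 29.2% and 13.8% passed at 0.05. Leaving out 1 experiment gave 4 (without experiment 3), 7 (without 1) and 21 (without 2) polysome calls of Rabs with torin1. The shares of all genes called were 10.6%, 15.8% and 46.1% in that order, and the cause was not tested. Analysis of partial variance called 1 Rab for translation efficiency with torin1, Rab30, where the edgeR interaction called 0. With experiment as a replicate block no Rab call was lost. The Rab calls numbered 32 and 29 with LPS and 24 and 22 with torin1 (total and polysome), against 29, 26, 20 and 17 without it. In the same order, calls over all 11243 genes rose likewise, to 8223, 7062, 7196 and 5587 from 7471, 6191, 6038 and 4322. DESeq2 gave 28, 27, 20 and 18 Rab calls, and 7276, 6035, 5891 and 4238 over all genes. Low counts limit Rab15, Rab30, Rab4a, Rab26 and Rab3a most.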
